A study of Homo sapiens with 32 samples.

Results

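Ribosome biogenesis factors are the proteins that make, cut, modify and fold ribosomal RNA and load ribosomal proteins onto it. The 50 examined here were chosen by gene symbol, all 50 were found among the 14340 genes with reads, and all 50 passed the filters on low counts in every reading. They are well known members of the box C/D and box H/ACA particles, the small-subunit processome, the late small-subunit pathway and the large-subunit pathway. Each gene was represented by its best-covered RefSeq transcript, chosen on reads summed across libraries.

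The study used HCT116, a line established from a human colorectal carcinoma, and every well carried OsTIR1, a plant auxin receptor, switched on with doxycycline at 200 ng/mL for 24 h. In the tagged line IGF2BP3, an RNA-binding protein, carried on both alleles the degron mAID, so that auxin together with OsTIR1 sends the tagged protein to the proteasome. The parental line had OsTIR1 and no tag. Tunicamycin, an inhibitor of N-linked glycosylation that causes stress in the endoplasmic reticulum (ER), was given at 5 µg/mL for 5 h. Cells exposed to auxin had 500 µM of it over 9 h, and DMSO served as the vehicle of both agents. The 8 groups, each of 4 wells, were tagged stressed auxin, tagged stressed vehicle, tagged unstressed auxin, tagged unstressed vehicle, and the same 4 in the parental line. Every well received 4-thiouridine (s4U) at 250 µM for the last 2 h, and RNA was alkylated with iodoacetamide, so that RNA made in those hours shows T-to-C conversions in its reads (SLAM-seq). How the tagged line was cloned was not given in the sources used here.

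Ribosome assembly starts in the nucleolus. Box C/D particles guide methylation of ribosomal RNA and box H/ACA particles guide pseudouridylation. The U3 particle and the UTP complexes gather on the new transcript as the small-subunit processome, while the PeBoW complex and many GTPases and helicases shape the large subunit. The genes of these factors are broadly active in growing cells and are known targets of the transcription factor MYC.

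Named genes held 2.55 to 6.98 M reads per library, except in replicate 1 of stressed, auxin-treated parental cells. That library, called the smallest library here, had 0.987 M. It also stood apart in composition: 9.97% of its reads came from its 10 most abundant genes (4.64% to 5.81% elsewhere), and its reads covered 15.1 T positions each (20.3 to 24.1 elsewhere). Results that rest on it are given with and without it. The stress markers DDIT3 and HSPA5 rose in all 4 stress comparisons, DDIT3 by 5.10 to 5.30 and HSPA5 by 2.47 to 2.70 on the log2 scale. IGF2BP3 mRNA averaged 149 ± 20 CPM in tagged unstressed cells with auxin and 156 ± 4 CPM with vehicle (SD), a log2 difference of -0.06 ± 0.11 (SE, adjusted p = 0.76, edgeR), and since the degron acts on protein the mRNA does not check the depletion. The epithelial markers EPCAM, KRT8, KRT18, KRT19, CDH1 and CDX2 had reads in every library, with CDH1 at 2.54 to 63.4 CPM. LGALS4 was at 0 in 28 libraries, and VIL1, also on the epithelial list, was not among the 14340 genes. Of the markers of other cell types PECAM1 was at 0 in 29 libraries, with CD68 at 2.43 to 14.0 and COL1A1 at 18.4 to 59.8 CPM. PTPRC, CD3E, CDH5, COL1A2 and DCN were not among the 14340 genes.

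The promoters of 5 members on which the results below turn are shown here, because 41 of the 50 members had a promoter in the RefSeq table (GRCh38.p14, the build hg38) and these members differ in the motifs they hold. Each runs 5′ to 3′ on the gene's strand, 250 bases before the start to 30 after it. Capitals mark CACGTG, the E-box that MYC binds, and CCGGAAG, a motif that ETS factors bind, with its reverse CTTCCGG. NOP56 is at chr20:2652382-2652661 on the plus strand, IMP3 at chr15:75640195-75640474 on the minus strand, NOP10 at chr15:34343107-34343386 on the minus strand, UTP18 at chr17:51260296-51260575 on the plus strand and PNO1 at chr2:68157638-68157917 on the plus strand.
NOP56: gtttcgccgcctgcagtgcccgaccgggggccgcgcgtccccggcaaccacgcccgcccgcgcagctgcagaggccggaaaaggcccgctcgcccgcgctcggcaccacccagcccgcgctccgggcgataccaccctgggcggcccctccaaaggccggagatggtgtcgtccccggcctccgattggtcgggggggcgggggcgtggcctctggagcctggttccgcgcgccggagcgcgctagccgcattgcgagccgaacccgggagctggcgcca
IMP3: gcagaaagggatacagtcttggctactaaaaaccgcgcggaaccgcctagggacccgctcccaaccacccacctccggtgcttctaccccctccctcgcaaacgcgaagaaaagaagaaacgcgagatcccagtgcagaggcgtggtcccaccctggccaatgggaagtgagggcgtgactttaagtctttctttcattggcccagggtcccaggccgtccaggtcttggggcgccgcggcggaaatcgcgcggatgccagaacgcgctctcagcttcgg
NOP10: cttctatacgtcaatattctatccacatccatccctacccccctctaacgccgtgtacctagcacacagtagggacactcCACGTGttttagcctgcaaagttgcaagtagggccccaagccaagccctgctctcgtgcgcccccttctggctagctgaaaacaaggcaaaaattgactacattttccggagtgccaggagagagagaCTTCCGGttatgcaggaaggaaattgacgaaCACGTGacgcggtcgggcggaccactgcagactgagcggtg
UTP18: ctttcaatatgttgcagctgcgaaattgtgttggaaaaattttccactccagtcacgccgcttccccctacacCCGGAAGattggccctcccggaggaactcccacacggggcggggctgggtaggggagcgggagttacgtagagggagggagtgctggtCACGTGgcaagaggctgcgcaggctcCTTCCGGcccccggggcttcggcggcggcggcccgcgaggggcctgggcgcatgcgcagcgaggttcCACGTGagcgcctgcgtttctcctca
PNO1: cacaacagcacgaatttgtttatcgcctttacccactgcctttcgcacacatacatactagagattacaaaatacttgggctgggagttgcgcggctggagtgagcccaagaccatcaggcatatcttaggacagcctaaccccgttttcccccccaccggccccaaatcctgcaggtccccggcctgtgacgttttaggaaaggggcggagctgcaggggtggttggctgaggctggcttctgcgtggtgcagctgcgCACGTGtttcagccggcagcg
NOP10 and UTP18 each held 2 copies of CACGTG, PNO1 held 1, and NOP56 and IMP3 held none of the motifs. Over the table's 300 bases (250 before to 50 after the start), CACGTG, read on both strands since it is its own reverse complement, was in 17 of 41 members (41.5%), against 2030 of 27305 promoters of all genes (7.43%). CCGGAAG on either strand was in 14 of 41 members (34.1%), against 10.7% of all promoters. No test was made of these shares, and a match is a description of the letters, not a bound site. The motifs searched do not overlap in sequence.

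Under ER stress, the clearest change among the 50 was in NOP56, the scaffold protein of box C/D particles, whose new mRNA was lower in all 4 stress comparisons. NOP56 lies at chromosome 20, 2652632 to 2658393 (RefSeq, GRCh38.p14), and its reads were counted over 99 bases of its 3′ end with 21 T positions. The labelled share, meaning the percent of a gene's reads with a T-to-C conversion, was 10.7, 11.5, 10.6 and 11.6% in stressed parental cells with vehicle, against 19.3, 20.4, 20.6 and 21.4% in unstressed ones. In stressed parental cells with auxin it was 7.61, 10.2, 9.72 and 9.81%, against 18.6, 17.0, 22.0 and 17.5% in unstressed ones. In every pair of groups the highest stressed library was below the lowest unstressed library.

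The tagged line showed the same order. NOP56 had labelled shares of 9.80, 9.90, 10.3 and 11.3% in stressed tagged cells with vehicle, against 20.8, 19.4, 19.0 and 15.5% in unstressed ones. With auxin the shares were 7.74, 11.2, 8.81 and 10.1% in stressed tagged cells, against 18.5, 18.3, 18.7 and 17.5% in unstressed ones. Pooled over the libraries of a group, 739 of 6597 NOP56 reads were labelled in stressed parental cells with vehicle (11.2%, Wilson 95% interval 10.5 to 12.0%), against 1225 of 5980 in unstressed ones (20.5%, 19.5 to 21.5%). These intervals cover counting error only. Counted per T position, conversions in NOP56 reads were 1.10 ± 0.10% in stressed and 2.46 ± 0.07% in unstressed parental cells with vehicle (SD, n = 4), while over all genes they were 0.806 ± 0.042% and 1.13 ± 0.07%. In these bulk samples, fewer cells of a kind and less RNA per cell cannot be told apart.

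Because the labelled share of the typical gene was itself lower under stress, each gene's share was tested relative to the typical gene, with edgeR's quasi-likelihood test and Benjamini-Hochberg adjustment over all 8980 genes that passed the filter. NOP56 fell by 0.71 ± 0.12 on the log2 scale in parental cells with vehicle (SE, adjusted p = 1.3e-06), by 0.77 ± 0.14 in parental cells with auxin (adjusted p = 1.14e-05), by 0.72 ± 0.13 in tagged cells with vehicle (adjusted p = 5.91e-06) and by 0.80 ± 0.13 in tagged cells with auxin (adjusted p = 1.57e-06). All 4 calls held under every alternative tried. The median of all genes without this centring was -0.40, -0.38, -0.28 and -0.31 in the same order of comparisons, so a gene that moved like the typical gene has a change near 0 here.

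**Figure D1:**
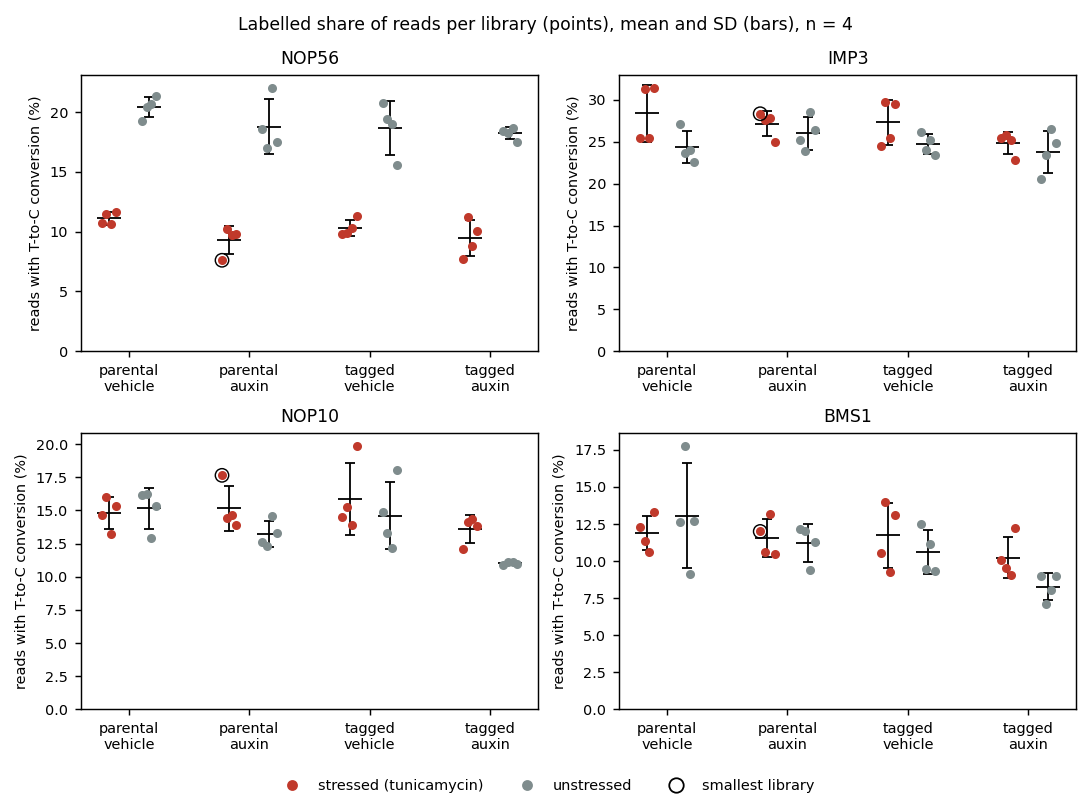
Labelled share of reads (percent, vertical axis) of NOP56, IMP3, NOP10 and BMS1 in each of the 32 libraries, stressed (left of each pair) beside unstressed, in parental and tagged cells with vehicle or auxin. Points are libraries, bars the mean and SD of 4, and the ring marks the smallest library. Stressed NOP56 libraries lie between 7.61 and 11.6% and unstressed ones between 15.5 and 22.0%, while the IMP3 groups overlap.

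The labelled share of 2 to 7 of the 50 members passed. It was 3 of 50 in parental cells with vehicle (8.17% of all genes tested passed), 4 in parental cells with auxin (8.1% of all genes), 2 in tagged cells with vehicle (7.1% of all genes) and 7 in tagged cells with auxin (7.14% of all genes). Without centring on the typical gene, 17 members passed in parental cells with vehicle and 10 in parental cells with auxin, all of them lower (22.1% and 17.1% of all genes passed), so the split of 1 higher and 2 lower in the first comparison and of 2 higher and 2 lower in the other is relative to that gene. In tagged cells with auxin the uncentred count was 8 (12.4% of all genes), all lower, against 4 higher and 3 lower with centring, and in tagged cells with vehicle it was 2 (11% of all genes), both lower, against 1 higher and 1 lower.

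IMP3, a protein of the MPP10 complex that helps U3 pair with ribosomal RNA precursors, passed in the other direction in all 4, relative to the typical gene. It had 25.4, 31.3, 25.4 and 31.5% labelled reads in stressed parental cells with vehicle, against 27.1, 23.7, 24.0 and 22.6% in unstressed ones, so the groups overlapped. Relative to the typical gene its share rose by 0.64 ± 0.11 (adjusted p = 4.14e-06), and by 0.44 ± 0.12 in parental cells with auxin, 0.46 ± 0.11 in tagged cells with vehicle and 0.36 ± 0.11 in tagged cells with auxin (edgeR, adjusted p = 0.00815, 0.00284 and 0.0373). None of these 4 calls remained without the centring, which moves the reference by 0.28 to 0.40. In tagged cells with auxin the call was lost under 9 of 16 alternatives, among them those without unstressed replicate 1 (adjusted p = 0.252) or stressed replicate 1, 2 or 3 (0.127, 0.0793 and 0.115).

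NOP10, the smallest core protein of box H/ACA particles, and BMS1, a GTPase of the small-subunit processome, moved toward more labelled reads in tagged cells with auxin. NOP10 had 12.1, 14.2, 14.4 and 13.8% labelled reads in the stressed libraries, against 10.9, 11.1, 11.1 and 10.9% in the unstressed ones, without overlap, a rise of 0.63 ± 0.14 relative to the typical gene (adjusted p = 0.000905). BMS1 had 10.1, 9.57, 9.09 and 12.2%, against 9.00, 7.09, 8.03 and 8.98%, a rise of 0.62 ± 0.18 (adjusted p = 0.0159). The NOP10 call was lost under 2 of 16 alternatives and the BMS1 call under 5, among them those without unstressed replicate 3 or stressed replicate 4 (adjusted p up to 0.202 and 0.229). Relative to the typical gene, DDX21, a nucleolar RNA helicase, rose by 0.35 in that comparison (adjusted p = 0.0115, edgeR). Its own share was 15.7, 14.0, 14.9 and 17.0% stressed, against 15.6, 13.8, 15.0 and 14.7% unstressed. Conversions per T position averaged lower under stress there: 0.766 against 0.841% for NOP10, 0.490 against 0.509% for BMS1 and 0.925 against 1.20% for DDX21. Over all genes they were 0.751 against 0.998%. FBL, the methyltransferase of box C/D particles, fell by 0.43 and NOP2, a ribosomal RNA methyltransferase, fell by 0.51 (adjusted p = 0.00848 and 0.038, edgeR). Of 16 alternatives, 4 lost the DDX21 call, 2 the FBL call and 6 the NOP2 call. NOP10 rose by 0.47 in parental cells with auxin as well (adjusted p = 0.034), a call lost under 10 of 15 alternatives.

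NOP14, a processome protein, was called in parental cells with auxin, where 10.0, 8.36, 8.39 and 7.61% of its reads were labelled in stressed libraries, against 18.2, 14.3, 14.4 and 15.6% in unstressed ones. The groups did not overlap, and the share fell by 0.70 ± 0.17 relative to the typical gene (adjusted p = 0.00288, edgeR). This call did not hold under every alternative. In tagged cells with auxin the difference was -0.21 ± 0.16 (adjusted p = 0.509). LTV1, a late small-subunit factor, fell by 1.07 ± 0.33 in parental cells with vehicle (adjusted p = 0.0243, lost under 5 of 16 alternatives), with 25.5 ± 6.8% labelled reads under stress and 46.9 ± 16.9% without (SD, n = 4).

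Labelled reads as such, scaled to the library's labelled reads, gave the same leading gene. NOP56 had 317, 276, 323 and 335 labelled CPM in stressed parental cells with vehicle, against 594, 631, 555 and 690 in unstressed ones. It fell by 0.98 ± 0.13 there (adjusted p = 1.69e-08), by 0.78 ± 0.15 in parental cells with auxin (adjusted p = 6.15e-05), by 0.76 ± 0.14 in tagged cells with vehicle (adjusted p = 2.71e-05) and by 0.69 ± 0.15 in tagged cells with auxin (adjusted p = 0.000314, edgeR). Its groups did not overlap in any of the 4, and the call held under every alternative tried.

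In parental cells with vehicle 8 members passed on labelled reads, 6 higher and 2 lower (17.2% of all genes passed). BMS1 had 211, 207, 212 and 224 labelled CPM in stressed cells, against 109, 132, 120 and 142 in unstressed ones, and rose by 0.76 ± 0.18 (adjusted p = 0.00154), a call that held under every alternative. Its total reads were 190, 214, 208 and 194 CPM, against 121, 98.7, 179 and 143, and its labelled share was not called there. NOP10 rose by 0.74 ± 0.19 (adjusted p = 0.00269, edgeR), a call that did not hold under every alternative. It had 329, 340, 314 and 345 labelled CPM under stress, against 209, 121, 231 and 230 without. The processome proteins UTP6 (UTP-B complex) and DDX47 (a helicase), the nucleolar GTPase GNL3 and the box C/D protein NOP58 rose by 0.56 to 1.10, and RRS1, a large-subunit factor known from yeast to help bring in the 5S particle, fell by 0.56. Scaled by total instead of labelled reads, 13 members passed, 3 higher and 10 lower (26.3% of all genes), with the median of all genes at -0.28. Without unstressed replicate 1 the count was 5, without stressed replicate 2 it was 3, and without the smallest library it was 12. The share of all genes ran from 12.0 to 21.6% over all libraries left out singly.

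The other 3 stress comparisons had fewer such members. In parental cells with auxin 6 passed (11.4% of all genes), DDX21 and RRP12, a late small-subunit factor, higher and NOP56, NIP7, RRP1B and NOP14 lower, and 3 passed without either unstressed replicate 1 or 3. The smallest library was highest in both rises: stressed labelled CPM were 561, 75.3, 99.3 and 106 for RRP12 and 2805, 1313, 1387 and 1396 for DDX21. Leaving it out, 6 members passed, 5 of them the same. Over all libraries left out singly, 8.94 to 12.8% of all genes passed. In tagged cells with vehicle only NOP56 passed (9.4% of all genes). It was 3 in tagged cells with auxin (9.77% of all genes): NOP56, BMS1 at 0.71 ± 0.20 and DDX21 at 0.45 ± 0.15 (adjusted p = 0.00911 and 0.0337, edgeR). DDX21 lost that call under 8 of 15 alternatives. Without the smallest library, 3 members passed in tagged cells with vehicle and 5 in tagged cells with auxin, and without unstressed replicate 4 it was 2 in tagged cells with vehicle. Over all libraries left out singly, 7.77 to 11.9% of all genes passed in tagged cells with vehicle and 7.65 to 12.1% with auxin. Scaled by total reads, the split was 0 higher and 3 lower in tagged cells with vehicle, 0 higher and 5 lower in tagged cells with auxin, and 1 higher and 7 lower in parental cells with auxin (12.7%, 14.1% and 19.1% of all genes).

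**Figure D2:**
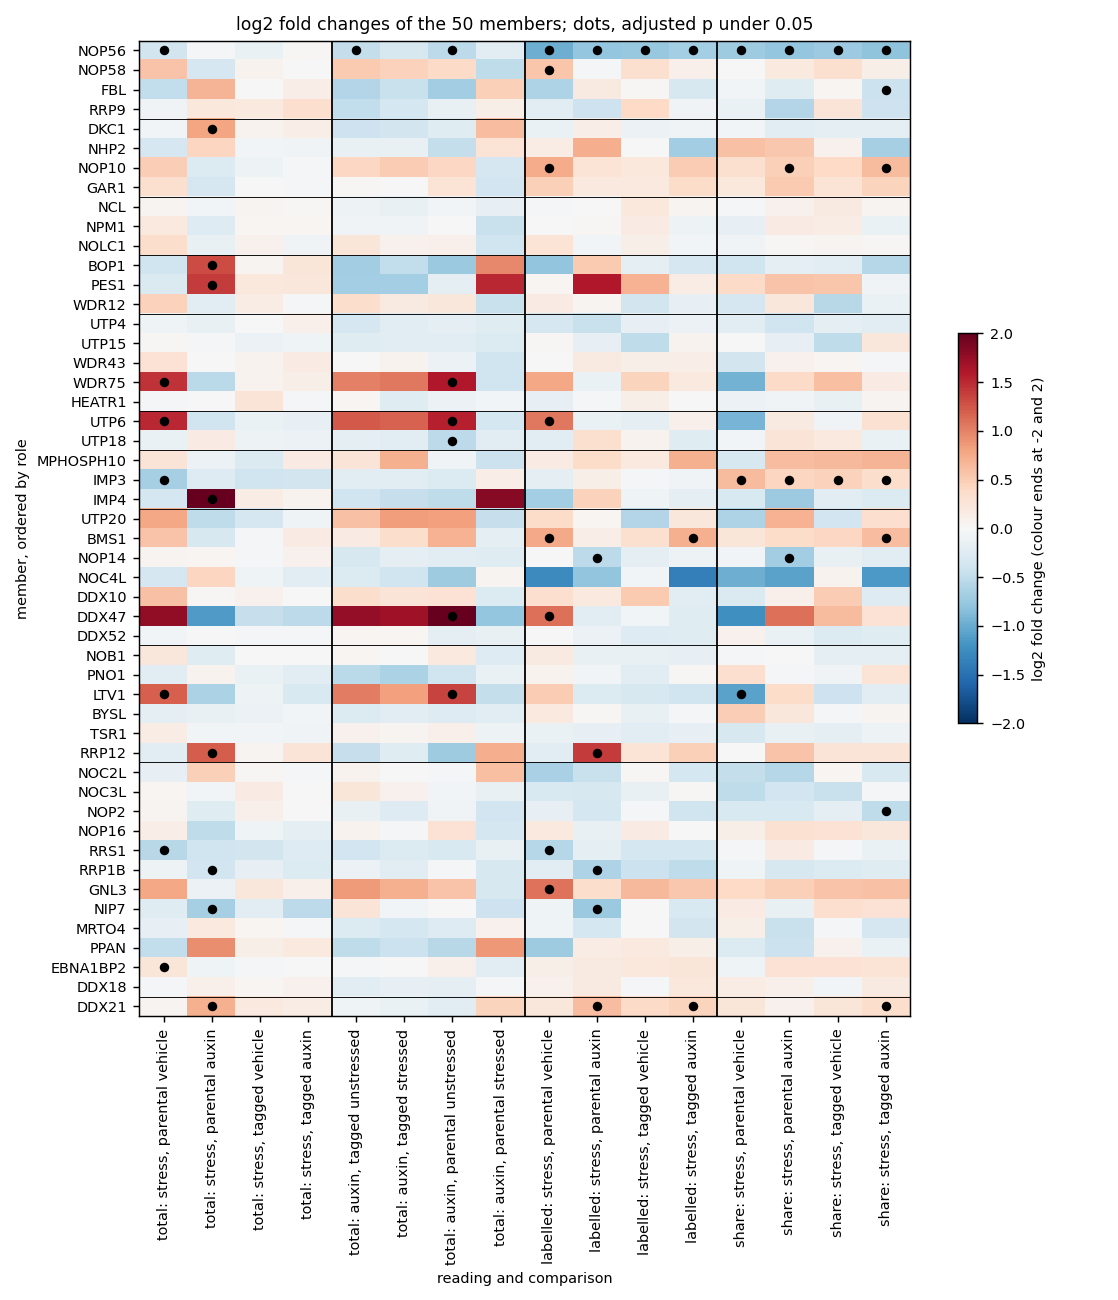
Log2 fold changes (colour, ends at -2 and 2) of the 50 members, ordered by role down the page, in 16 columns: total reads in 4 stress and 4 auxin comparisons, then labelled reads and labelled share in 4 stress comparisons. Dots mark adjusted p under 0.05, and NOP56 carries a dot in all 8 columns of labelled reads and labelled share.

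Summed over the 50 members, reads differed little under stress apart from the smallest library. The members took 10554 ± 241 CPM in stressed parental cells with vehicle and 10835 ± 427 in unstressed ones, and 10830 ± 200 in stressed tagged cells with vehicle and 10752 ± 258 in unstressed ones (SD, n = 4). With auxin they took 9765 ± 53 CPM in stressed and 9630 ± 157 in unstressed tagged cells. In parental cells with auxin the sums were 11412 ± 3451 in stressed and 9674 ± 237 in unstressed cells, and the stressed value was 9688 ± 193 without the smallest library (n = 3). With vehicle, their labelled share was 11.0 ± 0.67% in stressed and 12.8 ± 0.39% in unstressed parental cells, while that of all genes was 11.8 ± 0.74% and 12.9 ± 0.52%. In the tagged pair it was 10.5 ± 0.27% in stressed and 12.0 ± 0.56% in unstressed cells for the members, and 11.9 ± 0.47% and 12.6 ± 0.75% for all genes.

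In total reads, 7 members passed under stress in parental cells with vehicle, 4 higher and 3 lower, against 12.9% of all genes tested (7.64% higher and 5.26% lower). IMP3 had 313, 220, 266 and 259 CPM in stressed cells, against 370, 522, 370 and 410 in unstressed ones, and fell by 0.66 ± 0.13 (adjusted p = 0.000917, edgeR). RRS1 had 94.1, 74.0, 83.8 and 83.3 CPM, against 122, 123, 125 and 122, and fell by 0.56 ± 0.13 (adjusted p = 0.00462). Neither pair of groups overlapped, and both calls held under every alternative. In tagged cells with vehicle the same differences were -0.40 ± 0.13 for IMP3 and -0.37 ± 0.13 for RRS1, which did not pass with all libraries (adjusted p = 0.0983 and 0.138) and passed without the smallest library (0.0395 and 0.0261).

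NOP56 fell by 0.37 ± 0.12 in total reads (adjusted p = 0.0354), with 327, 282, 318 and 331 CPM in stressed parental cells with vehicle, against 430, 410, 367 and 414 in unstressed ones. In the other 3 stress comparisons its total reads differed by -0.14 to 0.02 and did not pass. The 4 members that rose were UTP6 (1.51 ± 0.47), WDR75 of the UTP-A complex (1.45 ± 0.47), LTV1 (1.20 ± 0.40) and EBNA1BP2, a large-subunit factor (0.24 ± 0.08), with adjusted p of 0.0329 to 0.0466. UTP6 had 33.0, 66.1, 31.6 and 31.6 CPM under stress, against 8.27, 5.35, 30.5 and 11.7 without, so that 1 unstressed library was close to the stressed ones. NOP56 lost its call under 8 of 15 alternatives (adjusted p up to 0.144). The count of 7 was 2 without unstressed replicate 1, 2 or 4 or without stressed replicate 2, it was 3 without stressed replicate 3, and it was 25 (17 higher and 8 lower) without the smallest library, where 30.1% of all genes passed. The lowest share of all genes with 1 library left out was 6.31%. MYC, the transcription factor, had 36.8 ± 13.2 CPM in these stressed cells and 16.9 ± 7.8 in unstressed ones (SD, n = 4), a rise of 1.11 ± 0.29 (adjusted p = 0.0117) with overlapping groups, and its difference in the other 3 stress comparisons was -0.20 to 0.20.

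In parental cells with auxin 8 members passed, 6 higher and 2 lower (10.5% of all genes, 7.26% higher and 3.19% lower), and this count rests on the smallest library. IMP4 of the MPP10 complex had 1286, 99.8, 118 and 98.3 CPM in the stressed libraries, against 90.2, 96.3, 87.3 and 111 in the unstressed ones, so that only the smallest library was high. RRP12, DDX21, the PeBoW proteins BOP1 and PES1, and the pseudouridine synthase DKC1 were the other members called higher. Without the smallest library 1 member passed (9.23% of all genes), NIP7, a large-subunit factor, at -0.62 (adjusted p = 0.0154). NIP7 had 44.5, 48.1, 48.5 and 61.8 CPM under stress, against 86.8, 77.3, 89.3 and 71.7 without, and fell by 0.66 ± 0.17 with all libraries (adjusted p = 0.0109). The count was 4 without unstressed replicate 1 or 3 and 5 without unstressed replicate 2 or 4, while 6.64 to 17.1% of all genes passed over all libraries left out singly.

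Stress in the tagged line called 0 members in total reads by edgeR, both with vehicle (4.03% of all genes) and with auxin (4.15% of all genes). At an unadjusted p under 0.05 it was 3 and 4 members (13.1% and 13.7% of all genes), and DESeq2 called 0 and 1. In tagged cells with vehicle all 50 members were within 0.5 of no change on the log2 scale, as were 86.9% of all genes. Without the smallest library 2 members passed with vehicle, IMP3 and RRS1, and 3 passed with auxin, NIP7 at -0.53, RRP1B at -0.27 and IMP3 at -0.37 (7.74% and 8.11% of all genes). With auxin 1 member passed without unstressed replicate 1 and 1 without stressed replicate 3, and with vehicle 1 passed without stressed replicate 4. Over all libraries left out singly, 3.01 to 8.11% of all genes passed with auxin and 3.11 to 7.74% with vehicle.

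Auxin, given to tagged cells to deplete IGF2BP3, went with lower reads of several members and higher reads of others, and so did auxin in parental cells, which have no tag. In unstressed tagged cells 14 members were lower in every auxin library than in any vehicle library (10.1% of all genes), and in stressed tagged cells also 14 (8.08% of all genes). In unstressed parental cells it was 11 (9% of all genes) and in stressed parental cells 6 (2.16% of all genes). NOP56, FBL, BOP1 and PNO1 were among them in both tagged comparisons and in unstressed parental cells. Other members were separated upward, and their counts are not given here, so the counts above show 1 direction only. In unstressed tagged cells NOP58, WDR75, LTV1 and GNL3 were higher in every auxin library than in any vehicle library. In unstressed tagged cells UTP6 had 36.1, 70.8, 57.2 and 39.6 CPM with auxin, against 27.1, 24.2, 25.3 and 12.1 with vehicle. In unstressed parental cells BMS1 had 226, 215, 241 and 199 CPM with auxin, against 121, 98.7, 179 and 143 with vehicle. Whether a member responded differently in the tagged and parental lines was tested separately and is given with the interaction terms.

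Few of these passed with adjustment over all 11186 genes. In unstressed tagged cells 1 member passed (0.679% of all genes), NOP56, at 281, 207, 260 and 275 CPM with auxin, against 362, 347, 326 and 390 with vehicle, a fall of 0.48 ± 0.12 (adjusted p = 0.0452, edgeR). The call was lost without any 1 of the 4 vehicle libraries or without auxin replicate 2 or 3 (adjusted p up to 0.27), 2 members passed without auxin replicate 4, 14 had an unadjusted p under 0.05 (20% of all genes), and DESeq2 called 5. The share of all genes that passed by edgeR ran from 0.0178 to 15.9% over all libraries left out singly. With the smallest library left out, which is in neither group, 16 members passed, 2 higher and 14 lower (15.9% of all genes), among them DKC1 at -0.41, PNO1 at -0.54, NOP56 at -0.48 and BOP1 at -0.70 (adjusted p = 0.00224, 0.00224, 0.00237 and 0.00252). GNL3 and NOP58 were the 2 that rose.

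In stressed tagged cells 0 members passed by edgeR (0.0179% of all genes), 13 had an unadjusted p under 0.05 (13.7% of all genes), and DESeq2 called 1. PNO1, which works with the endonuclease NOB1 that trims the end of the small-subunit RNA, had 62.5, 60.2, 72.9 and 67.2 CPM with auxin, against 109, 101, 98.9 and 98.9 with vehicle. The groups lay apart, and the difference was -0.63 ± 0.14 (adjusted p = 0.104, and 0.00114 without the smallest library). Leaving it out, 7 members passed, all lower (2.51% of all genes): PNO1, DKC1, PES1, MRTO4 (a large-subunit factor), IMP4, BOP1 and NOP56. In unstressed tagged cells PNO1 had 64.9, 88.0, 66.6 and 87.5 CPM with auxin, against 111, 120, 101 and 117 with vehicle.

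In unstressed parental cells 6 members passed, 4 higher and 2 lower (7.16% of all genes, 4.83% higher and 2.33% lower). UTP18 of the UTP-B complex had 67.0, 60.7, 71.3 and 79.5 CPM with auxin, against 103, 99.3, 97.5 and 99.7 with vehicle, and fell by 0.52 ± 0.11 (adjusted p = 0.00902), a call that held under every alternative. NOP56 fell by 0.53 ± 0.12 (adjusted p = 0.0112), with 251, 287, 266 and 318 CPM, against 430, 410, 367 and 414. LTV1, DDX47, WDR75 and UTP6 rose by 1.35 to 2.13 (adjusted p = 0.037 to 0.0435), and each had libraries that overlapped between the groups. PNO1 had 83.0, 87.8, 79.6 and 80.0 CPM with auxin, against 108, 119, 100 and 110 with vehicle, a difference of -0.40 ± 0.14 that did not pass (adjusted p = 0.0651). The count was 2 without vehicle replicate 1 or 4, 1 without vehicle replicate 2 or auxin replicate 1 or 3, and 10 without vehicle replicate 3. Over all libraries left out singly, the share of all genes that passed itself ran from 0.417 to 24.9%. The count was 22 (7 higher and 15 lower) without the smallest library, where 24.9% of all genes passed.

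**Figure D3:**
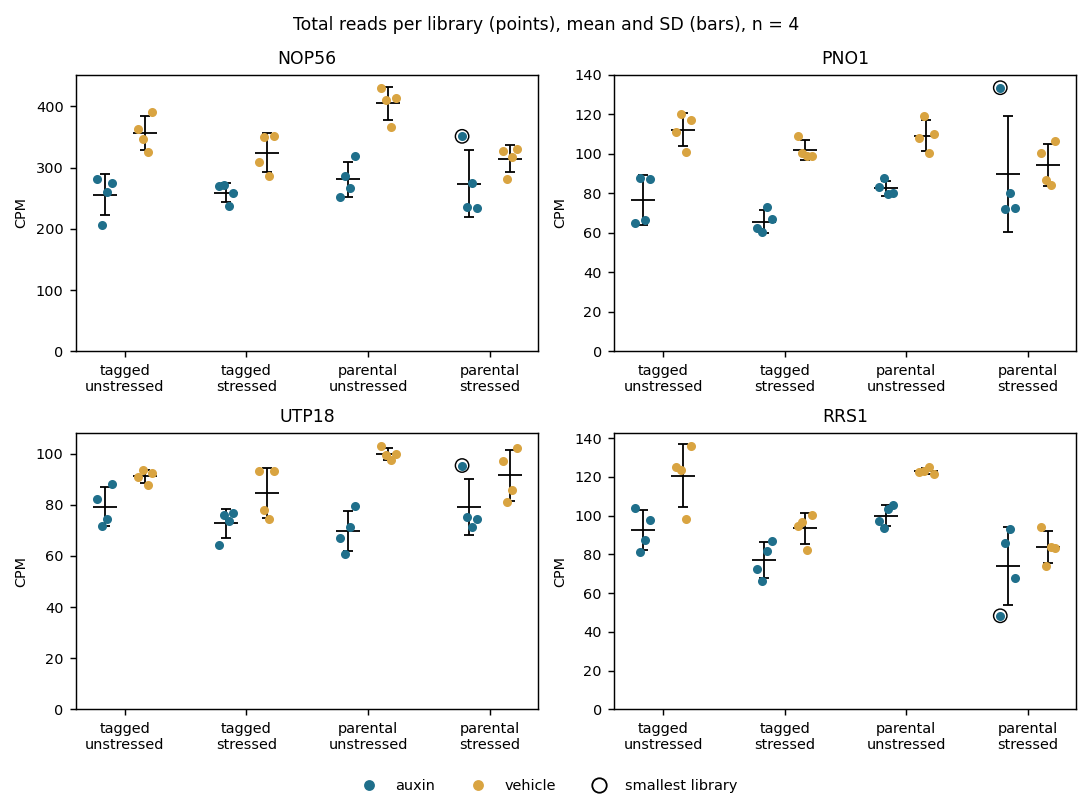
Total reads (CPM, vertical axis) of NOP56, PNO1, UTP18 and RRS1 in each of the 32 libraries, auxin (left of each pair) beside vehicle. Points are libraries, bars the mean and SD of 4, and the ring marks the smallest library. PNO1 lies between 60.2 and 72.9 CPM in stressed tagged cells with auxin, below all 4 vehicle libraries, and is lower with auxin in unstressed parental cells too.

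Auxin in stressed parental cells called 0 members by edgeR (0.0179% of all genes), with 20 at an unadjusted p under 0.05 (15.9% of all genes) and 1 by DESeq2. The count was 2 without auxin replicate 2 or 3 and 7 without auxin replicate 4, settings that keep the smallest library, and 0 without the smallest library (0.0266% of all genes). The share of all genes reached 7.36% with 1 library left out. Labelled reads of the tagged line called 0 members with auxin by edgeR, in unstressed cells (0.2% of all genes) and in stressed cells (0%), with 9 and 9 at an unadjusted p under 0.05 (12.4% and 10.6% of all genes). Labelled shares called 0 and 0 (0% of all genes in both), with 8 and 1 at an unadjusted p under 0.05 (7.26% and 6.88% of all genes). No other tool was run on labelled reads, and limma on labelled ratios is among the alternatives of the shares.

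Summed over the 50 members, reads were lower with auxin in 3 of the 4 comparisons. They took 9630 ± 157 CPM in unstressed tagged cells with auxin and 10752 ± 258 with vehicle, and 9765 ± 53 in stressed tagged cells with auxin and 10830 ± 200 with vehicle (SD, n = 4). In unstressed parental cells it was 9674 ± 237 with auxin and 10835 ± 427 with vehicle. In stressed parental cells it was 11412 ± 3451 with auxin and 10554 ± 241 with vehicle, and 9688 ± 193 with auxin without the smallest library (n = 3). The box C/D proteins held 54.1% of the difference in unstressed tagged cells, 44% in stressed tagged cells and 63.7% in unstressed parental cells. They summed to 1568 ± 253 CPM in unstressed tagged cells with auxin and 2175 ± 167 with vehicle, to 1692 ± 67 with auxin and 2161 ± 211 with vehicle in stressed tagged cells, and to 1517 ± 167 with auxin and 2256 ± 355 with vehicle in unstressed parental cells. FBL alone had 1095 ± 226 CPM with auxin and 1640 ± 151 with vehicle in unstressed tagged cells. The fall of the sum was not shared by every box C/D protein. NOP58 had 150, 193, 197 and 176 CPM with auxin in those cells, against 117, 149, 133 and 99.0 with vehicle. NCL, an abundant nucleolar protein that binds ribosomal RNA, had 1079 ± 23 CPM with auxin and 1161 ± 34 with vehicle in unstressed tagged cells.

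The base composition of the reads moved with these groups. Libraries of auxin-treated cells covered on average 23.2 T positions per read in unstressed tagged cells, 22.8 in stressed tagged cells and 22.9 in unstressed parental cells, against 21.8, 21.8 and 21.3 in the matching vehicle libraries. Stressed parental cells with vehicle had 22.5, against 21.3 unstressed, and stressed and unstressed tagged cells with vehicle had 21.8 each. Its part in the results was not tested.

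Some members followed the T positions per read of a library closely, in both directions, and others did not. Over the 31 libraries other than the smallest, Pearson's r of a member's log2 CPM with T positions per read was 0.91 for UTP6, 0.90 for WDR75 and 0.83 for DDX47, and -0.94 for BOP1, -0.92 for FBL, -0.90 for IMP4 and -0.87 for NOP56. For PNO1 it was -0.62, for RRS1 -0.58 and for IMP3 -0.45. In all, 7 of the 50 had an r above 0.8 and 6 had one below -0.8, while 13 lay within 0.4 of 0. The correlations are descriptions over libraries that differ in group. The same counts over all genes are not given here, so those of the members cannot be set against the typical gene. The members' own reads also differed in composition: those of NOC4L, a processome protein, covered 4.78 T positions, the lowest of the members, and those of WDR75 covered 35.7, the highest.

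**Figure D4:**
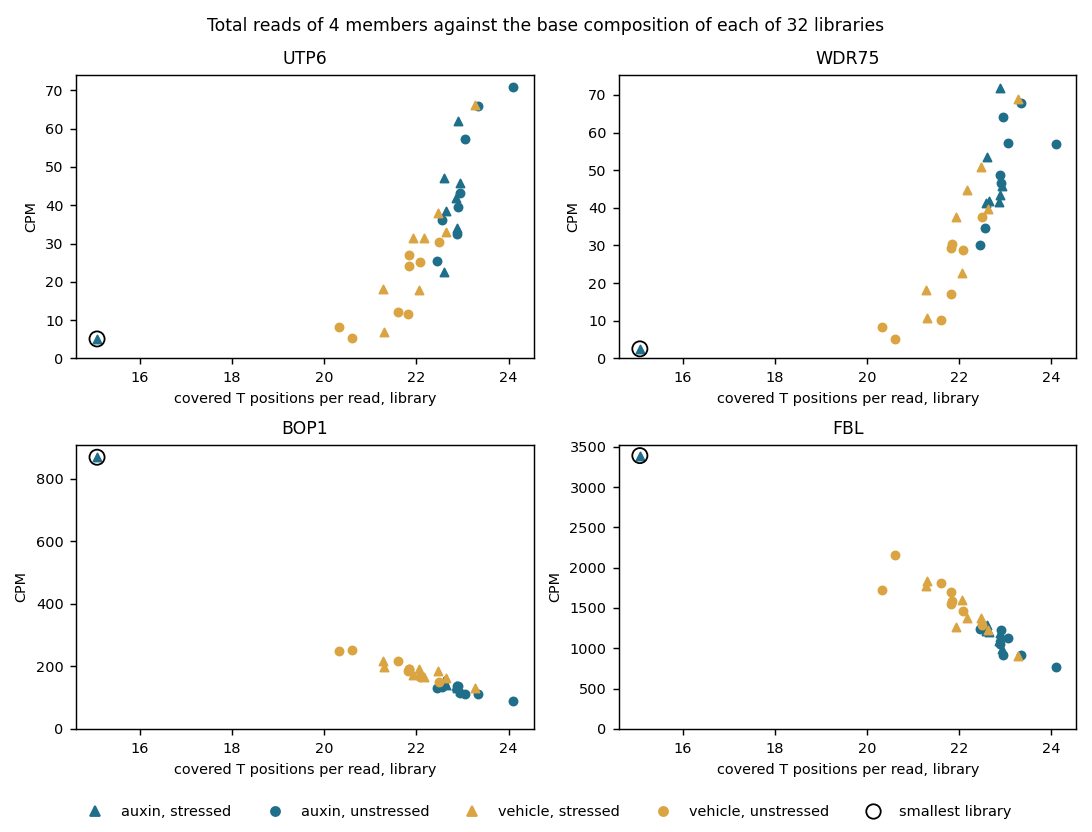
Total reads (CPM, vertical axis) of UTP6, WDR75, BOP1 and FBL against the covered T positions per read of each of the 32 libraries (horizontal axis). Colour separates auxin from vehicle, shape separates stressed from unstressed, and the ring marks the smallest library at 15.1 T positions per read. UTP6 and WDR75 are higher and BOP1 and FBL lower in libraries with more T positions per read.

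An axis of this kind was also present among replicates within groups, with the 8 groups pooled. The first principal component of the libraries' deviations from their group means held 37.0% of the variance of 8151 well-counted genes, 49 of them members. Its loadings, which say how strongly a gene moves along it, were 5.29 for DDX47, 4.72 for UTP6, 4.59 for WDR75, 3.29 for LTV1 and 2.29 for GNL3, and were lowest for FBL (-1.52), PES1 (-1.51) and BOP1 (-1.30). PNO1 was near 0 (-0.12). Across the 49 members the loading correlated with T positions per read at r = 0.66 and rho = 0.76, and across all 8151 genes at r = 0.54. The component's sign was set so that a library's score rises with its T positions per read, which favoured a positive sign here in advance. Genes are not independent replicates, and no p is given.

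The members' changes with auxin lay along this axis in 3 of the 4 auxin comparisons. Without the smallest library, r across 49 members between the log2 fold change and the loading was 0.96 in unstressed tagged cells, 0.95 in stressed tagged cells and 0.95 in unstressed parental cells, but -0.38 in stressed parental cells. Across all 8151 genes it was 0.86, 0.84, 0.85 and -0.07 in the same order. For stress in parental cells with vehicle it was 0.95 across members and 0.66 across all genes. In the other stress comparisons it was -0.54 (parental cells with auxin), -0.23 (tagged cells with vehicle) and -0.38 (tagged cells with auxin). With the axis as a covariate, 20 members passed with auxin in unstressed tagged cells, 19 in stressed tagged cells, 23 in unstressed parental cells and 1 in stressed parental cells, where 22%, 14%, 28.5% and 0.0536% of all genes passed. The axis score was taken from deviations from group means, so apart from the smallest library it can hardly shift a difference between groups. The NOP56 difference with auxin in unstressed tagged cells, -0.48 in that setting, therefore cannot show what part the axis had in it.

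**Figure D5:**
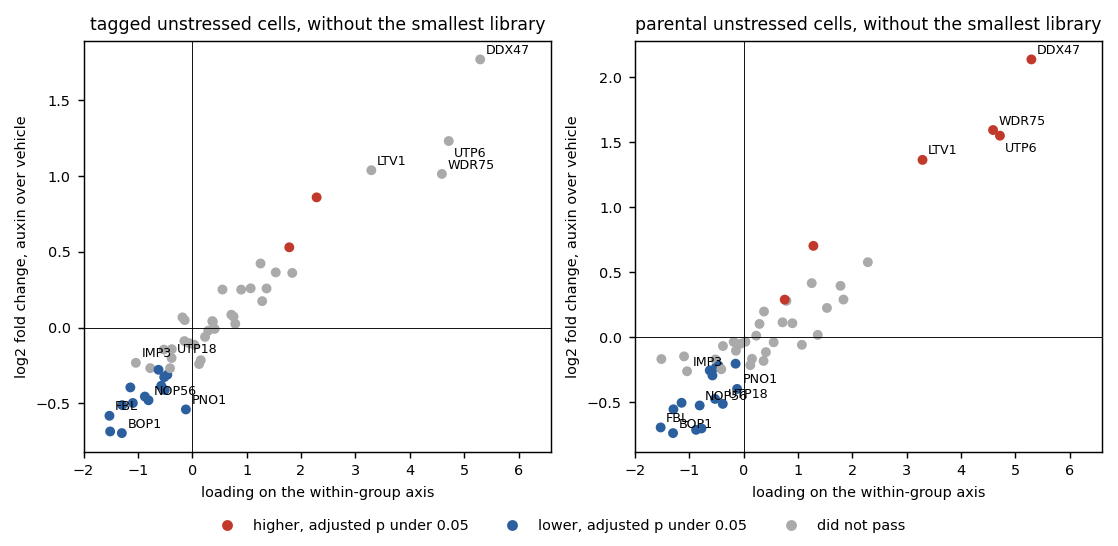
Log2 fold change of total reads with auxin over vehicle (vertical axis) against the loading on the within-group axis (horizontal axis) for 49 members, in unstressed tagged cells (left) and unstressed parental cells (right), without the smallest library. Red and blue points passed higher or lower at adjusted p under 0.05. DDX47, UTP6 and WDR75 lie at the upper right and FBL and BOP1 at the lower left in both panels, while PNO1 lies below 0 at a loading near 0.

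DDX47 averaged higher in total reads and lower in labelled share with auxin in unstressed parental cells, on few reads. It had 40.1 ± 27.3 CPM in unstressed parental cells with auxin and 9.10 ± 3.35 with vehicle, while its labelled share was 25.5 ± 8.7% and 67.7 ± 15.6% (SD, n = 4). The vehicle libraries held 15, 29, 54 and 42 of its reads, and the auxin libraries 270, 67, 260 and 40. This difference in share was not tested. Across members the labelled share in unstressed parental cells with vehicle ran from 3.33 ± 0.12% for FBL to 67.7 ± 15.6% for DDX47. Reads of FBL covered 18.7 T positions each and those of DDX47 28.2.

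Between tagged and parental cells with vehicle 0 members passed by edgeR, either unstressed (0.241% of all genes) or stressed (0.411% of all genes). At an unadjusted p under 0.05 it was 1 and 7 members (7.06% and 11.5% of all genes), and DESeq2 called 0 and 0. Without the smallest library 2 members passed in stressed cells (3.43% of all genes): PES1 at 0.62 (adjusted p = 0.0182) and MPHOSPH10 of the MPP10 complex at -0.75 (adjusted p = 0.0408). PES1 averaged 162 ± 25 CPM in stressed tagged cells and 106 ± 16 in stressed parental cells.

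Whether the lines responded differently was tested by interaction terms, and 0 members passed in any of the 3 by edgeR or by DESeq2. For the response to stress with vehicle (0% of all genes) 6 members had an unadjusted p under 0.05 (7.37% of all genes). For the response to auxin 0.0179% of all genes passed in unstressed and 0% in stressed cells, and 1 and 22 members had an unadjusted p under 0.05 (5.96% and 21.7% of all genes). In the stressed test the smallest library is in the parental group. Without auxin replicate 4 of stressed parental cells 9 members passed the last of these tests, while the share of all genes ran from 0 to 9.3% over all libraries left out singly. For PNO1 the response to auxin, tagged minus parental, differed by -0.14 ± 0.19 in unstressed and -0.50 ± 0.20 in stressed cells (adjusted p = 1.0 and 0.176, edgeR). In stressed cells it was -0.31 without the smallest library. For NOP56 the response differed by 0.05 ± 0.16 in unstressed cells, and for UTP18 by 0.32 ± 0.15 (adjusted p = 0.822).

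Other genes of the pathway, from lists of assembly factors and RNA polymerase I genes outside the 50, were read in the same fit. Of 31 further small-subunit factors, 1 rose and 1 fell in total reads under stress in parental cells with vehicle. RIOK2, a late small-subunit kinase, and UTP3, a processome protein, were called there and in tagged cells with vehicle. Of 42 further large-subunit factors 2 rose and 1 fell, and of 20 RNA polymerase I genes 1 rose and 1 fell, in parental cells with vehicle. These are 6.45%, 7.14% and 10% of the lists, against 12.9% of all genes. The medians of the 3 lists were 0.03, -0.03 and 0.07, against -0.01 for all genes. Under stress in parental cells with auxin 12.9%, 11.9% and 10% of the lists passed with all libraries, against 10.5% of all genes. For auxin in unstressed parental cells it was 6.45%, 7.14% and 5%, against 7.16% of all genes. With auxin in tagged cells 0 of the 31, 0 of the 42 and 0 of the 20 passed by edgeR, unstressed (0.679% of all genes) or stressed (0.0179%). List medians there were -0.14 to -0.01, against -0.0049 and -0.0023 for all genes.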

How the data were processed

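SLAM-seq libraries of 8 groups of 4 wells were analysed, grouped by their titles. Reads came from a kit that sequences 3′ ends, as single reads, per the labels' protocols. Slamdunk tables gave, per transcript, the deposited counts of reads, of reads with T-to-C conversions, of covered T positions and of conversions, per the file headers, on hg38 per the submitters' processing notes. The deposited CPM values and the conversion rate, a fraction, were made by the authors and were not used. No source used here gives the mapping and filtering settings. RefSeq identifiers were matched without their version to a RefSeq table (GRCh38.p14): 40006 of 40767 NM and 6326 of 33066 XM identifiers matched.

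Genes were tested with edgeR 4.0.16 in R 4.3.3 (quasi-likelihood, TMM, filterByExpr, 1 coefficient per group over all 32 libraries, Benjamini-Hochberg adjustment, threshold 0.05): 11186 genes in total reads and 8980 in labelled reads and shares. Labelled shares were tested on labelled and other reads of a library as paired columns. DESeq2 1.42.0 and limma 3.58.1 (pseudocounts 0.5 on reads and conversions and 1 on covered T positions) served as alternatives. CPM in the text are from these counts on TMM-scaled library sizes, and depth was 0.987 to 6.98 M named-gene reads. Intervals (Wilson, 95%) cover counting error only. The wells were of 1 experiment, so a p-value reflects variation among wells, which may be technical. The fit was checked on simulated data.

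The members and lists were chosen with earlier results of these data known. The text names members that passed, up to 8 per comparison by adjusted p, and members of a role group that did not. The alternatives were other scalings, filters, tools, replicate blocks, the within-group axis and libraries left out. Equal replicate numbers did not pair the wells in total reads, while the labelled percent of a library followed its number.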

Additional observations from a re-analysis of the deposited data

Results flagged for a closer look

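In groups of 4, a library was singled out when its gap to the nearest of the others took up more of the group's range than Dixon's 95% critical value. This happened in 20 of 192 groups, and chance flags about 1 in 20. Of the 20, 10 were the smallest library, replicate 1 of stressed, auxin-treated parental cells. It was highest in labelled DDX21 (2805 labelled CPM, nearest 1396), IMP4 (1286 CPM, nearest 118), DKC1 (1885 CPM, nearest 526), BOP1 (869 CPM, nearest 155), PNO1 (134 CPM, nearest 80.2), UTP18 (95.4 CPM, nearest 75.1) and the sum of the 50 members (16583 CPM, nearest 9858). It was lowest in labelled NOP10 (40.1 labelled CPM, nearest 301), WDR75 (2.54 CPM, nearest 41.3) and the members' labelled share (6.54%, nearest 10.5%).

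Replicate 2 of stressed parental cells with vehicle was highest in EBNA1BP2 (421 CPM, nearest 402), UTP6 (66.1 CPM, nearest 33.0), LTV1 (77.8 CPM, nearest 37.6), DDX47 (67.9 CPM, nearest 20.4) and NIP7 (88.8 CPM, nearest 62.9). Replicate 3 of stressed tagged cells with auxin was highest in LTV1 (74.7 CPM, nearest 38.5) and DDX47 (75.6 CPM, nearest 30.9). In stressed tagged cells with vehicle, replicate 4 was lowest in EBNA1BP2 (327 CPM, nearest 367) and replicate 1 highest in PNO1 (109 CPM, nearest 101). Replicate 4 of unstressed tagged cells with vehicle was lowest in WDR75 (10.2 CPM, nearest 28.8).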

How the results depend on the processing

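No result reversed, and 12 of 56 member calls held under every alternative run. They were NOP56 in labelled reads and in labelled share (4 stress comparisons each), IMP3 and RRS1 in total reads and BMS1 in labelled reads (stress, parental vehicle), and UTP18 in total reads (auxin, unstressed parental). The counts of members called did move, and the cause was not tested. DESeq2 called 1 under stress in tagged cells with auxin (0 by edgeR), 5 with auxin in unstressed tagged cells (1), 1 in stressed tagged cells (0) and 1 in stressed parental cells (0), where 5.51, 5.05, 0.312 and 3.34% of all genes passed. RLE scaling gave 0 with auxin in unstressed tagged cells (0.581% of all genes). Without a filter it was 2 under stress in parental cells with vehicle, 0 and 2 with auxin in unstressed tagged and parental cells, and 1 for labelled share with auxin in stressed tagged cells (8.47, 0.195, 4.26 and 0.081% of all genes).

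With only the compared groups fitted, total reads gave 14, 0, 2 and 3 under stress (parental vehicle, parental auxin, tagged vehicle, tagged auxin), 21, 14 and 13 with auxin (tagged unstressed, tagged stressed, parental unstressed) and 3 for tagged over parental stressed cells. The shares of all genes were 20.7, 1.11, 7.49 and 9%, then 19.8, 12.4 and 15.3%, and 3.44%. Labelled reads gave 13, 1, 3 and 5 under stress and 3 and 3 with auxin (21.5, 5.55, 10.9, 12.3, 3.02 and 1.89% of all genes), and labelled share 5 in parental cells with vehicle (9.99%). Scaled by total reads, labelled reads gave 13, 3 and 5 (parental vehicle, tagged vehicle, tagged auxin; 26.3, 12.7 and 14.1% of all genes). Labelled share without centring gave 17 and 10 in parental cells with vehicle and auxin (22.1 and 17.1%). Limma on conversions per T gave 1, 1 and 3 (parental auxin, tagged vehicle, tagged auxin; 4.55, 3.6 and 3.45%), and on log2 ratios 1 and 3 in tagged cells (4.78 and 4.58%).

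With the axis as covariate, total reads gave 23, 5, 2 and 3 under stress, 20, 19, 23 and 1 with auxin (tagged unstressed and stressed, parental unstressed and stressed), 2 and 13 for tagged over parental unstressed and stressed cells, and 9 and 9 for the interactions of stress and of auxin in stressed cells. The shares of all genes were 35, 11.9, 8.47 and 9.55%, then 22, 14, 28.5 and 0.0536%, then 4.4 and 11.1%, and 7.36 and 6.24%. Labelled reads gave 13, 3 and 5 under stress and 4 and 3 with auxin (23.7, 12.4, 13.1, 3.32 and 1.93%). Leaving out 1 library at a time, total reads ranged 2 to 25, 1 to 12, 0 to 2 and 0 to 3 under stress, 0 to 16, 0 to 7, 1 to 22 and 0 to 7 with auxin, 0 to 2 for tagged over parental stressed cells and 0 to 9 for the auxin interaction in stressed cells. The shares of all genes ranged 6.31 to 30.1, 6.64 to 17.1, 3.11 to 7.74 and 3.01 to 8.11%, then 0.0178 to 15.9, 0 to 2.51, 0.417 to 24.9 and 0.0178 to 7.36%, and 0.142 to 3.43 and 0 to 9.3%. Labelled reads ranged 3 to 12, 3 to 7, 1 to 3 and 2 to 5 under stress and 0 to 1 and 0 to 2 with auxin (12 to 21.6, 8.94 to 12.8, 7.77 to 11.9, 7.65 to 12.1, 0 to 1.86 and 0 to 1.07% of all genes). Labelled share ranged 2 to 5 in parental cells with vehicle, without unstressed replicate 3 for the highest, and 4 to 7 in tagged cells with auxin, without stressed replicate 4 for the lowest (6.33 to 8.62 and 5.55 to 7.8% of all genes). The replicate block gave 7, 6, 0 and 0 members in total reads under stress and 1, 0, 6 and 0 with auxin, and it moved no count by over 1.5 times. The shares of all genes that passed with this block are not given here. In total reads, same-number correlations ran between -0.495 and 0.543, and at most 3 of 4 libraries correlated best with their own number. The labelled percent of all genes did follow the number. Replicates 1 and 3 were above 2 and 4 in every unstressed group and below them in every stressed group. The replicate block gave each number the same term in all groups, so it could not take up a pattern that turns in this way. In parental cells with vehicle it was 13.4, 12.8, 13.2 and 12.2% unstressed and 11.6, 12.7, 11.0 and 12.1% stressed. The cause was not tested. Depth was lowest in the smallest library, which also stood apart in composition.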
